A study of Homo sapiens with 30 samples.

Results

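The genes described are 10 genes of the YAP and TEAD pathway, found by symbol among the 60617 genes listed for each library. They are YAP1 and WWTR1, the genes of the coactivators YAP and TAZ, TEAD1 and TEAD4, which encode DNA-binding partners of these coactivators, and the target genes CCN1, CCN2, ANKRD1, AMOTL2, AJUBA and LATS2. YAP and TAZ have no DNA-binding domain of their own and act on genes by binding TEAD factors. Kinases of the Hippo pathway, LATS1 and LATS2 among them, phosphorylate YAP and TAZ and hold them in the cytoplasm, and in the intestinal epithelium YAP is known for its part in regeneration after injury and in tumour growth. Several targets feed back on the pathway, since AMOTL2 and LATS2 restrain YAP and AJUBA binds LATS kinases.

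The RNA came from 2 human lines of colorectal cancer grown in culture, HCT116 and SW480, after transfection with 10 nM of siRNA and 48 h of incubation. In each line 3 libraries came from cells with a control siRNA (siControl), 3 each from cells with siBRD8-6 or siBRD8-36, against BRD8, and 3 each from cells with siTIP60-2 or siTIP60-11, against TIP60, which gave 10 groups and 30 libraries. BRD8 is a bromodomain subunit of the TIP60 histone acetyltransferase complex and TIP60, encoded by KAT5, is its catalytic subunit. All groups, controls included, were transfected with the same reagent, and each line stands for a single tumour. Nothing in the labels tells whether replicates were grown as separate cultures. A p-value here rests on the scatter of such samples, which could be technical.

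TEAD factors recognise the letters GGAATG, which read CATTCC on the other strand. A RefSeq promoter window (GRCh38.p14), from 250 bases before the start of the gene to 50 after it, was found for 7 of the 10 genes. TEAD1, TEAD4 and CCN1 had none. The letters occurred in 14.03% of the 35116 promoter windows of 300 bases. They occurred 3 times in the window of CCN2, 2 times in that of ANKRD1 and 1 time each in those of YAP1 and LATS2. Of the 2 windows that AMOTL2 and AJUBA each had, 1 held a match, and neither window of WWTR1 did. The AP-1 letters TGANTCA, a palindrome around its N, were found in 7.71% of all windows and among these genes only in that of ANKRD1, as TGATTCA at bases −195 to −189. The CArG box of serum response factor was found in 1.29% of all windows and in none of these. No match overlapped another. CCN2 and ANKRD1 are printed because their windows held more than 1 match, and YAP1 because its own level fell with siBRD8-36 in both lines. The letters run 5′ to 3′ on the strand of the gene from 250 bases before the start, stop at the RefSeq start or, for CCN2 and ANKRD1, where GENCODE 29 begins the gene before it, and have GGAATG in capitals.
CCN2, chr6:131951374-131951622, minus strand: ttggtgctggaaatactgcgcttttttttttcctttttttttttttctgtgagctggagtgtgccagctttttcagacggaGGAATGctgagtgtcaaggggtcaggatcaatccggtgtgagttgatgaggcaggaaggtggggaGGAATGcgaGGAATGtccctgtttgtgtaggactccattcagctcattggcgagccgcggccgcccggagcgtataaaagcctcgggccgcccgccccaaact
ANKRD1, chr10:90921277-90921337, minus strand: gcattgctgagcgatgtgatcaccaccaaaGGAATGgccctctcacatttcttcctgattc
YAP1, chr11:102110197-102110446, plus strand: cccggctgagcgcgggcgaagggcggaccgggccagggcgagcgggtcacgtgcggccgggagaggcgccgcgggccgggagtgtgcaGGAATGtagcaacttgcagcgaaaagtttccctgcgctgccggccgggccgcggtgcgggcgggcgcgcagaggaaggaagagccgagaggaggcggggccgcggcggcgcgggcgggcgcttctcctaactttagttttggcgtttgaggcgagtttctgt
The matches in CCN2 began 169, 104 and 95 bases before the start, those in ANKRD1 220 and 128 bases before it (the second and the AP-1 letters lie past the printed stretch or at its end), and that in YAP1 162 bases before it. A match describes letters in the reference and no binding was measured.

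The depth of a library was 13.4 to 18.6 M counts for HCT116. For SW480 it was 7.07 to 11.7 M, with at most 7.69 M in a control. BRD8 fell to 14.2% to 24.5% of control with its siRNAs and KAT5 to 7.36% to 13.6% with its own, over both lines. KAT5 also stood at 80.5% and 75.002% of control with siBRD8-36 in HCT116 and SW480. Ribosomal protein genes took 9.59 to 10.01% of counts in SW480 controls and 7.02 to 8.74% in the depleted SW480 libraries, and 8.92% in HCT116 control replicate 2 against 6.79% and 6.50% in the other HCT116 controls. Of 8 markers of colorectal epithelium, 6 had a median of at least 1 CPM (count scaled to library size) in HCT116 and 7 in SW480, with CDX1 below it in both lines and VIL1 in HCT116. Summed over the list, the epithelial markers stood at 3411 to 4021 CPM in HCT116 controls and at 5668 to 7568 CPM in the depleted HCT116 groups. Fibroblast markers summed to 19.3 to 21.8 CPM in HCT116 controls and up to 70.2 with siBRD8-36, which was COL1A1 for the most part, and stayed at or below 17.2 in SW480, where COL1A2, COL3A1, DCN and LUM were at 0 in every library. Leukocyte and endothelial markers summed to at most 3.44 and 2.42 CPM, with PTPRC at 0 in SW480 and CDH5 at 0 in both lines. Their part in the results was not tested, and in such bulk samples fewer cells of a type and less RNA per cell cannot be told apart.

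In control cells the 2 lines differed most in ANKRD1, which was abundant in SW480 and close to absent in HCT116. By TPM (transcript abundance corrected for length), YAP1 led in HCT116 at 58.8 ± 10.5 (SD, n = 3, as for all groups here), before WWTR1 at 41.2 ± 7.23 and TEAD1 at 35.8 ± 11.4. TEAD4 followed at 23.9 ± 1.53, AJUBA at 18.01 ± 3.03 and AMOTL2 at 17.2 ± 3.40, and LATS2 at 10.4 ± 2.40 and CCN1 at 9.82 ± 1.07. CCN2 stood at 2.65 ± 0.601 and ANKRD1 at 0.130 ± 0.0608 TPM. The libraries of WWTR1 and TEAD1, of TEAD1 and TEAD4, of AJUBA and AMOTL2 and of LATS2 and CCN1 overlapped as neighbours in this order. In SW480, ANKRD1 led at 236 ± 8.46 TPM, followed by YAP1 at 62.5 ± 3.32, AMOTL2 at 39.4 ± 5.34 and WWTR1 at 37.7 ± 3.84. TEAD4 at 27.3 ± 2.33, CCN1 at 25.04 ± 2.73, AJUBA at 18.9 ± 1.55 and TEAD1 at 18.8 ± 2.42 TPM came next, then LATS2 at 9.81 ± 2.08 and CCN2 at 1.81 ± 0.377. AMOTL2 and WWTR1 overlapped in SW480, as did TEAD4 and CCN1, and AJUBA and TEAD1.

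Between the control libraries of the lines, 8 of the 10 genes differed at an adjusted p under 0.05 (edgeR's quasi-likelihood test with Benjamini-Hochberg adjustment over all genes tested), as did 78.5% of all 17411 genes tested. ANKRD1 had 8 counts in the 3 HCT116 controls together and 8513 in the 3 SW480 controls, a ratio per total count of 2239 (95% exact interval 1136 to 5188, covering counting error only). CCN1 was lower in HCT116 than in SW480 (log2 difference −1.61 ± 0.0861, adjusted p = 4.73e-18), as was AMOTL2 (−1.49 ± 0.0751, adjusted p = 9.12e-19). TEAD4 (−0.50 ± 0.0911, adjusted p = 9.34e-06), YAP1 (−0.37 ± 0.0569, adjusted p = 5.91e-07), AJUBA (−0.30 ± 0.0828, adjusted p = 0.00143) and LATS2 (−0.21 ± 0.0923, adjusted p = 0.0428) were also lower in HCT116. TEAD1 was higher there (0.58 ± 0.119, adjusted p = 0.000106). WWTR1 (−0.057 ± 0.0587, adjusted p = 0.375) and CCN2 (0.28 ± 0.195, adjusted p = 0.196) did not pass the test. The LATS2 call ended without HCT116 control replicate 2, SW480 control replicate 1, SW480 siBRD8-6 replicate 1 or 3 or SW480 siTIP60-2 replicate 2 (adjusted p between 0.0508 and 0.209). On the scale of log2(TPM + 1) the difference of LATS2 turned to 0.080 and was not called. On that scale the calls of TEAD4 (−0.18, adjusted p = 0.0829), YAP1 (−0.10, adjusted p = 0.342) and AJUBA (−0.077, adjusted p = 0.558) were lost as well, and CCN2 was called higher in HCT116 (0.38, adjusted p = 0.0228). WWTR1 passed as lower in HCT116 without HCT116 control replicate 3, SW480 control replicate 3, SW480 siBRD8-6 replicate 2, SW480 siBRD8-36 replicate 1 or 2, SW480 siTIP60-2 replicate 3 or SW480 siTIP60-11 replicate 1 (adjusted p between 0.00658 and 0.0413), with DESeq2 (0.0105), with the size factors of DESeq2 (0.0124) and with the stricter filter (0.00580).

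**Figure D1:**
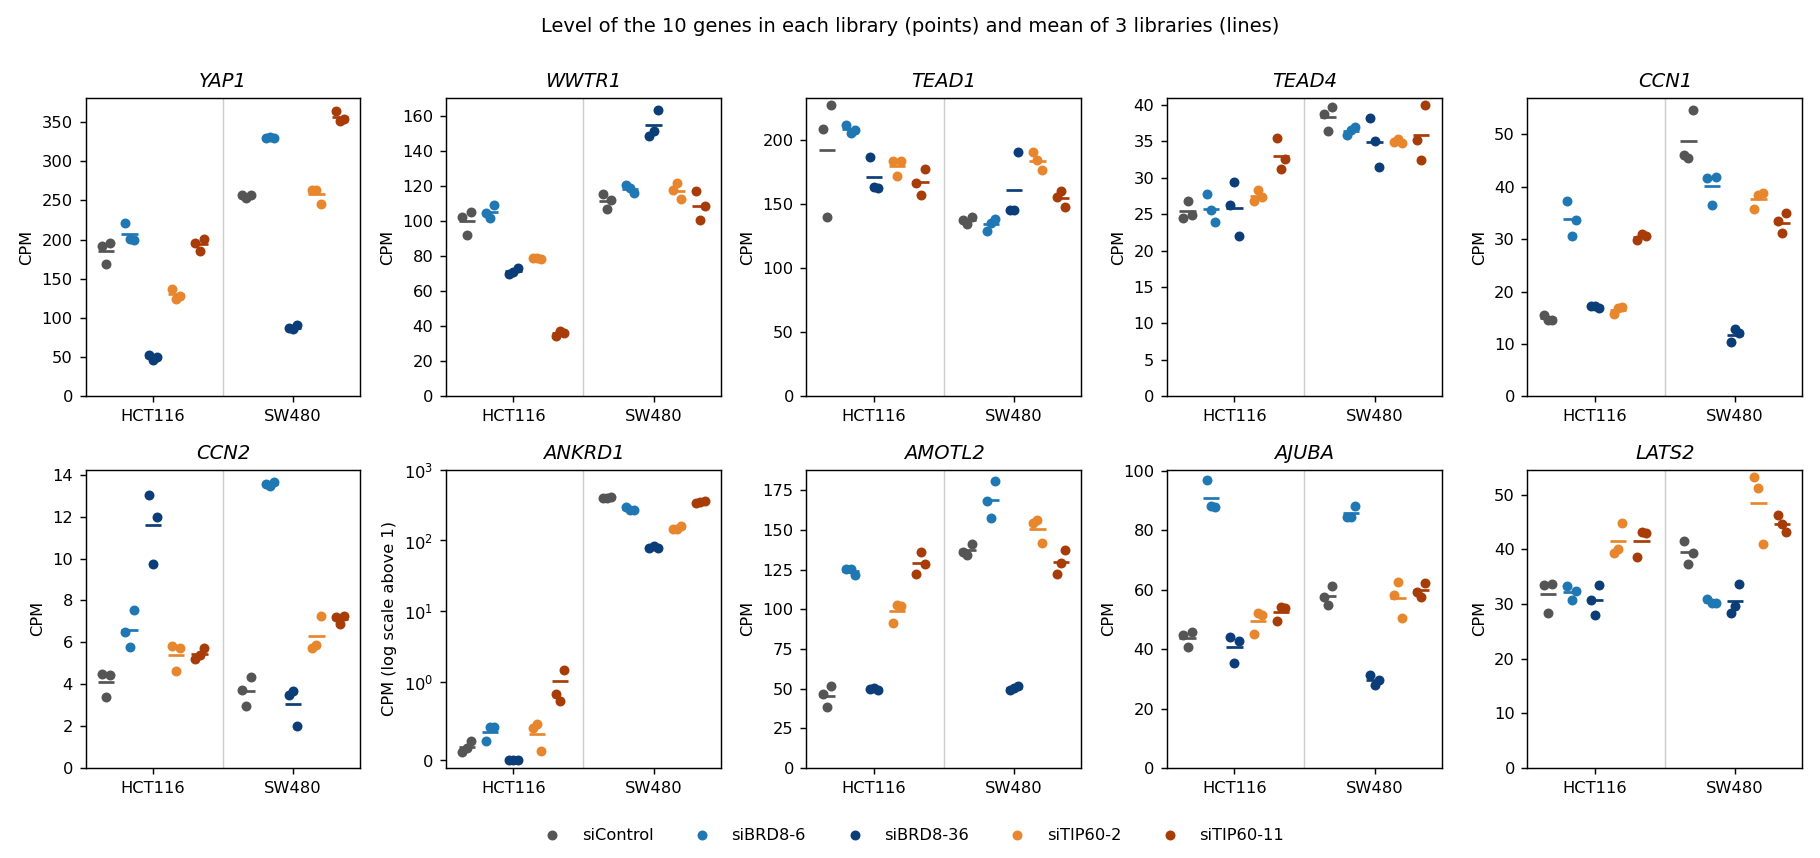
Expression level (CPM, vertical axes; log scale above 1 for ANKRD1) of the 10 genes in each of the 30 libraries. Points are libraries, lines the means of 3, colours the siRNAs, HCT116 on the left and SW480 on the right of each panel. YAP1 is lowest with siBRD8-36 in both lines, at means of 49.9 and 87.7 CPM, and WWTR1 is lowest with siTIP60-11 in HCT116, at 36.1 CPM.

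The coactivator gene YAP1 (ENSG00000137693, chromosome 11, 102110461 to 102233423, plus strand, on GRCh38 by GENCODE 29, protein-coding as are all 10 genes) was lowered by 1 BRD8 siRNA and not by the other. In HCT116 it measured 191, 169 and 195 CPM in the 3 control libraries, 221, 200.3 and 199 with siBRD8-6 and 53.005, 46.4 and 50.4 with siBRD8-36. In SW480 it measured 257, 253 and 257 CPM in control, 329.8, 331 and 329 with siBRD8-6 and 86.9, 85.4 and 90.9 with siBRD8-36. The siBRD8-36 libraries lay below every other library of their line, and in SW480 the siBRD8-6 libraries lay above every control. YAP1 thus stood at 26.97% of control with siBRD8-36 in HCT116 (log2 fold change −1.89 ± 0.0691, adjusted p = 5.07e-14) and at 34.3% in SW480 (−1.54 ± 0.0534, adjusted p = 6.67e-19). In SW480, siBRD8-6 raised it (log2 fold change 0.37 ± 0.0506, adjusted p = 7.62e-07). In HCT116 the change with siBRD8-6 was 0.16 ± 0.0643, adjusted p = 0.0482, a call that ended without control replicate 2, siBRD8-6 replicate 1 or 2, siBRD8-36 replicate 3, siTIP60-2 replicate 2 or 3 or siTIP60-11 replicate 1, 2 or 3 (adjusted p between 0.0522 and 0.211) and with the stricter filter (0.0505).

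With the TIP60 siRNAs, YAP1 measured 137, 124 and 128 CPM with siTIP60-2 and 196, 185 and 201 with siTIP60-11 in HCT116. In SW480 it measured 264, 263 and 246 with siTIP60-2 and 364, 351 and 353 with siTIP60-11. It fell with siTIP60-2 in HCT116 (−0.51 ± 0.0651, adjusted p = 2.61e-06), with all 3 libraries below the controls, and rose with siTIP60-11 in SW480 (0.48 ± 0.0505, adjusted p = 9.88e-09), with all 3 above them. The siTIP60-11 libraries overlapped control in HCT116 (0.066 ± 0.0644, adjusted p = 0.412) and the siTIP60-2 libraries overlapped it in SW480 (0.010 ± 0.0508, adjusted p = 0.887).

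WWTR1 (ENSG00000018408, chromosome 3, 149517235 to 149736714, minus strand), which encodes the coactivator TAZ, fell after TIP60 depletion in HCT116, and no TIP60 siRNA moved it past the test in SW480. In HCT116 it measured 103, 92.4 and 105 CPM in control, 79.3, 79.1 and 78.4 with siTIP60-2 and 34.6, 37.3 and 36.3 with siTIP60-11. In SW480 the values were 115, 107 and 112 in control, 118, 122 and 113 with siTIP60-2 and 117, 101 and 109 with siTIP60-11. All 6 HCT116 libraries with a TIP60 siRNA lay below the controls, and in SW480 both groups overlapped them. A change for a target is given as the mean over its siRNAs, and is called where both moved the same way and the larger of their p-values, adjusted over all genes, is under 0.05. The change in HCT116 was −0.34 on the log2 scale with siTIP60-2 and −1.47 with siTIP60-11, with a mean of −0.91 ± 0.0467, adjusted p = 5.49e-05, a call lost on log2(TPM + 1) (−0.72, adjusted p = 0.292). With siBRD8-36, WWTR1 went the opposite way in the 2 lines. It fell to 69.98, 71.3 and 73.1 CPM in HCT116 (−0.49 ± 0.0542, adjusted p = 2.78e-07) and rose to 149, 152 and 164 in SW480 (0.47 ± 0.0616, adjusted p = 2.61e-07). The siBRD8-6 libraries measured 104, 102 and 109 CPM in HCT116 and 121, 119 and 116 in SW480 (adjusted p = 0.299 and 0.268), and in both lines the mean change over the BRD8 siRNAs did not pass the test.

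The TEAD genes passed the test with few of the siRNAs. TEAD1 (ENSG00000187079, chromosome 11, 12674591 to 12944483, plus strand) measured 209, 140.2 and 228 CPM in HCT116 controls, where replicate 2, the library with the high ribosomal protein share, was lowest of all 15 libraries. The depleted HCT116 libraries lay between 157 and 212 CPM and no siRNA passed the test. Without control replicate 2, TEAD1 was called lower after TIP60 depletion in HCT116 (adjusted p = 0.000653) and with siBRD8-36 (1.74e-05). The TIP60 siRNAs singly then had adjusted p of 0.00037 and 6.57e-06. In SW480, TEAD1 rose with siTIP60-2, from 138, 135 and 140.0 to 191, 184 and 177 CPM (0.42 ± 0.0768, adjusted p = 6.81e-05), and stood at 155, 161 and 148 with siTIP60-11, above the controls but with an adjusted p of 0.0722. A rise with siBRD8-36 (0.23 ± 0.0769, adjusted p = 0.0145) ended without control replicate 2 (adjusted p = 0.0554) and without siBRD8-36 replicate 3 (0.215). With siBRD8-36 replicate 3 left out, TEAD1 passed as higher with siTIP60-11 (0.00605) and for TIP60 depletion in SW480 (adjusted p = 0.0113).

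TEAD4 (ENSG00000197905, chromosome 12, 2959330 to 3040673, plus strand) rose with siTIP60-11 in HCT116, from 24.4, 26.8 and 24.9 to 35.4, 31.2 and 32.5 CPM (0.38 ± 0.0892, adjusted p = 0.00129), and passed the test with no other siRNA. The siTIP60-11 libraries lay above every control. In SW480 all groups of TEAD4 lay between 31.4 and 40.01 CPM, and each neighbour in the order of means overlapped the next.

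CCN1 (ENSG00000142871, chromosome 1, 85580761 to 85583962, plus strand), which encodes a secreted matricellular protein and is among the most used reporters of YAP, rose with 3 of 4 siRNAs in HCT116 and fell with all 4 in SW480. In HCT116 it measured 15.5, 14.5 and 14.6 CPM in control, 37.2, 30.6 and 33.6 with siBRD8-6 and 17.3, 17.2 and 16.9 with siBRD8-36. With siTIP60-2 it measured 15.8, 16.9 and 17.1 and with siTIP60-11 29.9, 30.99 and 30.6. All depleted libraries lay above the controls, those with siBRD8-6 and siTIP60-11 far above. The rises with siBRD8-6 (1.18 ± 0.0740, adjusted p = 2.5e-10) and siTIP60-11 (1.03 ± 0.0749, adjusted p = 1.31e-09) passed the test. That with siTIP60-2 did not (0.15 ± 0.0788, adjusted p = 0.117), and that with siBRD8-36 (0.20 ± 0.0785, adjusted p = 0.0341) was lost without control replicate 2 or 3 or siBRD8-36 replicate 1, 2 or 3 (adjusted p between 0.0550 and 0.0895), with DESeq2 (0.0750), with no filter (0.120) and in 1 fit of all 30 libraries (0.0648). Over both siRNAs CCN1 was called for neither target in HCT116 (adjusted p = 0.0724 for BRD8 and 0.187 for TIP60).

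In SW480, CCN1 measured 46.1, 45.4 and 54.7 CPM in control, 41.7, 36.6 and 41.9 with siBRD8-6 and 10.3, 12.9 and 12.1 with siBRD8-36. With siTIP60-2 it measured 35.8, 38.4 and 38.9 and with siTIP60-11 33.5, 31.1 and 34.9. Every depleted library lay below every control, and siBRD8-36 stood lowest at 24.1% of control. Its mean log2 fold change was −1.17 ± 0.0796, adjusted p = 0.0144, after BRD8 depletion, of which siBRD8-6 gave −0.28 ± 0.0857 and siBRD8-36 −2.06 ± 0.101. After TIP60 depletion it was −0.46 ± 0.0753, adjusted p = 0.00196. The call with siBRD8-6 ended without control replicate 3 (adjusted p = 0.0895) and without siBRD8-6 replicate 2 (0.0562). The BRD8 call ended without control replicate 3 (adjusted p = 0.153) and without siBRD8-6 replicate 2 (0.0950). On log2(TPM + 1) neither call of CCN1 was kept (−0.84, adjusted p = 1 for BRD8 and −0.24, adjusted p = 0.854 for TIP60).

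CCN2 (ENSG00000118523, chromosome 6, 131948176 to 131951373, minus strand), a relative of CCN1 that encodes connective tissue growth factor, rose with 7 of the 8 combinations of siRNA and line. In HCT116 it measured 4.47, 3.39 and 4.43 CPM in control, 6.51, 5.76 and 7.52 with siBRD8-6 and 13.01, 9.74 and 11.997 with siBRD8-36. In SW480 it measured 3.71, 2.95 and 4.33 in control, 13.6, 13.5 and 13.7 with siBRD8-6 and 3.49, 3.66 and 1.99 with siBRD8-36. So siBRD8-36 stood highest in HCT116, and in SW480 siBRD8-6 stood highest while siBRD8-36 overlapped control. BRD8 depletion raised CCN2 in HCT116 by a mean of 1.08 ± 0.133, adjusted p = 0.00222, the only call among the 10 genes for that comparison. In SW480 it rose with siBRD8-6 (1.89 ± 0.181, adjusted p = 1.44e-09) and changed by −0.27 ± 0.219 with siBRD8-36, short of the test (adjusted p = 0.314).

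Both TIP60 siRNAs raised CCN2. It measured 5.83, 4.61 and 5.75 CPM with siTIP60-2 and 5.23, 5.42 and 5.74 with siTIP60-11 in HCT116. In SW480 it measured 5.75, 5.86 and 7.27 with siTIP60-2 and 7.23, 6.86 and 7.24 with siTIP60-11. All of these lay above the controls of their line. TIP60 depletion raised CCN2 in SW480 (0.87 ± 0.176, adjusted p = 0.00374), and in HCT116 the mean change of 0.39 ± 0.137 did not pass over both siRNAs (adjusted p = 0.0773). The HCT116 change did pass with a term for the replicate number in the fit. The calls of the single siRNAs in HCT116 were marginal. That with siTIP60-2 (adjusted p = 0.0474) ended without control replicate 2, siBRD8-6 replicate 1, siBRD8-36 replicate 3, siTIP60-2 replicate 1 or 3 or siTIP60-11 replicate 1, 2 or 3 (adjusted p between 0.0518 and 0.173), with DESeq2 (0.0875) and with no filter (0.0593). That with siTIP60-11 (0.0376) ended without control replicate 2 or siTIP60-11 replicate 1, 2 or 3 (adjusted p between 0.0556 and 0.142), with DESeq2 (0.0742) and with no filter (0.0630). CCN2 was sparse, with 20 to 227 counts in a library.

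ANKRD1 (ENSG00000148677, chromosome 10, 90912096 to 90921276, minus strand), which encodes an ankyrin repeat protein of the nucleus and the sarcomere, fell with all 4 siRNAs in SW480. It measured 395, 403 and 414 CPM in control, 297, 269 and 270.4 with siBRD8-6 and 79.3, 82.6 and 77.99 with siBRD8-36. With siTIP60-2 it measured 144, 146 and 159.8 and with siTIP60-11 344, 352 and 357. No group overlapped another, in the order control, siTIP60-11, siBRD8-6, siTIP60-2 and siBRD8-36. The last stood at 19.8% of control and siTIP60-2 at 37.1%, against 68.98% with siBRD8-6 and 86.9% with siTIP60-11. The mean log2 fold change was −1.44 ± 0.0469, adjusted p = 1.54e-08, after BRD8 depletion and −0.82 ± 0.0468, adjusted p = 0.00643, after TIP60 depletion. The latter call was lost in 1 fit of all 30 libraries (adjusted p = 0.0581) and on log2(TPM + 1) (−0.60, adjusted p = 0.584).

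In HCT116, ANKRD1 was near the limit of detection. Its counts were 2, 2 and 4 in the control libraries, 4, 7 and 7 with siBRD8-6 and 0, 0 and 0 with siBRD8-36, and 7, 8 and 2 with siTIP60-2 and 14, 12 and 21 with siTIP60-11. Only siTIP60-11 stood above all controls by more than counting error, at 5.96 times control (95% exact interval 2.79 to 14.6, adjusted p = 0.000647). The ratios were 2.14 (0.884 to 5.68) with siBRD8-6 and 2.01 (0.820 to 5.37) with siTIP60-2. With 3 counts in a whole group as the floor for the 0 counts with siBRD8-36, that floor lay 2.84-fold below the rate of control. It lay 6.07-fold below the rate of siBRD8-6. The error of the 8 counts of control and the 18 of siBRD8-6 is not in these values, so they are not lower bounds. The fall from control passed the test (adjusted p = 0.00580).

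AMOTL2 (ENSG00000114019, chromosome 3, 134355874 to 134375479, minus strand), a member of the angiomotin family that binds YAP, rose in HCT116 with every siRNA but siBRD8-36. It measured 46.4, 38.5 and 51.5 CPM in control, 125, 125 and 122 with siBRD8-6 and 49.8, 50.5 and 49.05 with siBRD8-36. With siTIP60-2 it measured 91.4, 103 and 102 and with siTIP60-11 122, 136 and 129. The siBRD8-36 libraries overlapped the controls and all others lay above them. TIP60 depletion raised AMOTL2 by 1.31 ± 0.0702, adjusted p = 2.62e-09. siBRD8-6 raised it by 1.44 ± 0.0776, adjusted p = 3.16e-11, while the mean over the BRD8 siRNAs was not called (adjusted p = 0.359) except without control replicate 3 (adjusted p = 0.0477). Without that library siBRD8-36 passed too (0.0219). In SW480, AMOTL2 measured 136, 134 and 141 CPM in control, 168, 157 and 181 with siBRD8-6 and 49.2, 50.2 and 51.9 with siBRD8-36. The first siRNA raised it (0.30 ± 0.0617, adjusted p = 0.000182) and the second lowered it below every other SW480 library (−1.44 ± 0.0668, adjusted p = 2.64e-16). With siTIP60-2 and siTIP60-11 it stood at 151 ± 7.98 and 129.5 ± 7.33 CPM (adjusted p = 0.0709 and 0.299). It passed with siTIP60-2 without siTIP60-2 replicate 3 (adjusted p = 0.0309).

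AJUBA (ENSG00000129474, chromosome 14, 22971174 to 22982642, minus strand), which encodes a LIM protein that binds LATS kinases, rose with siBRD8-6 in both lines. It measured 44.7, 40.9 and 45.7 CPM in HCT116 control, 96.9, 88.1 and 87.7 with siBRD8-6 and 44.01, 35.5 and 42.8 with siBRD8-36. In SW480 it measured 57.7, 54.8 and 61.1 in control, 84.4, 84.6 and 88.2 with siBRD8-6 and 31.2, 27.9 and 29.6 with siBRD8-36. The siBRD8-6 libraries were the highest of each line, and in SW480 the siBRD8-36 libraries were the lowest. The rises with siBRD8-6 were 1.05 ± 0.0785, adjusted p = 2.78e-09 in HCT116 and 0.57 ± 0.0743, adjusted p = 3.3e-07 in SW480, and the fall with siBRD8-36 in SW480 was −0.97 ± 0.0821, adjusted p = 9e-11. With siTIP60-11 in HCT116 it rose by 0.26 ± 0.0807, adjusted p = 0.0107, and 0.18 ± 0.0806, adjusted p = 0.0775 with siTIP60-2 did not pass, except without siBRD8-36 replicate 2 (adjusted p = 0.0421), without siTIP60-2 replicate 1 (0.0224) and with no filter (0.0413). For TIP60 depletion in HCT116 over both siRNAs (adjusted p = 0.125) it passed without siTIP60-2 replicate 1 (adjusted p = 0.0371). AJUBA overlaps AL132780.3 on the same strand, which had up to 113 counts in a library, so reads could be divided between them. Genes that overlap the other 9 had at most 7 counts in a library. Whether counting used the strand is not given in the sources used here.

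LATS2 (ENSG00000150457, chromosome 13, 20973032 to 21061547, minus strand), a kinase that phosphorylates YAP and TAZ, changed by small amounts. In SW480 it measured 41.6, 37.4 and 39.3 CPM in control, 30.9, 30.2 and 30.3 with siBRD8-6 and 28.3, 29.6 and 33.6 with siBRD8-36. In HCT116 it measured 33.4, 28.4 and 33.7 in control, 39.4, 40.1 and 44.9 with siTIP60-2 and 38.5, 43.2 and 43.1 with siTIP60-11. The SW480 libraries with a BRD8 siRNA lay below the controls and the HCT116 libraries with a TIP60 siRNA above them. LATS2 fell after BRD8 depletion in SW480 (−0.37 ± 0.0803, adjusted p = 0.00282) and rose after TIP60 depletion in HCT116 (0.38 ± 0.0714, adjusted p = 0.00139), with −0.37 ± 0.0925 and −0.37 ± 0.0923 from the BRD8 siRNAs and 0.37 ± 0.0812 and 0.38 ± 0.0816 from the TIP60 siRNAs. Both calls were lost on log2(TPM + 1) (−0.24, adjusted p = 0.689 and 0.15, adjusted p = 0.876). With BRD8 siRNAs in HCT116 it stood at 32.2 ± 1.29 and 30.8 ± 2.77 CPM and overlapped control (−0.021 ± 0.0719, adjusted p = 1). In SW480 it rose with siTIP60-2 (0.30 ± 0.0885, adjusted p = 0.00650), lost without siTIP60-2 replicate 1 (adjusted p = 0.0610), and with siTIP60-11 it stood at 44.7 ± 1.62 CPM (adjusted p = 0.0963).

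Few of the 10 genes were called for a target as a whole, by the rule that both siRNAs move a gene the same way and the larger p, adjusted, is under 0.05. This rule is stricter than a pass with each siRNA alone. After BRD8 depletion in HCT116, 1 of the 10 was called, where 24.4% of all 15919 genes tested were. After TIP60 depletion in HCT116, 2 rose (AMOTL2, LATS2) and 1 fell (WWTR1), where 27.9% of all genes were called. In SW480, 3 fell after BRD8 depletion (CCN1, ANKRD1, LATS2) against 26.9% of all 15277 genes called, and 1 rose (CCN2) and 2 fell (CCN1, ANKRD1) after TIP60 depletion against 23.6%. The share was below that of all genes in the first comparison and near it in the other 3. The median log2 fold change of the 10 genes was 0.0019 and 0.31 in HCT116 for BRD8 and TIP60, and −0.29 and 0.023 in SW480, where the medians of all genes were −0.022, −0.027, −0.0036 and 0.0075. The 6 depleted libraries lay beyond all 3 controls for 2 of the 10 genes after BRD8 depletion and 6 after TIP60 depletion in HCT116, where 29.3% and 33.5% of all genes did so. In SW480 they did for 4 and 4, against 35.2% and 34.4%. By single siRNA, in HCT116 siBRD8-6 raised 5 and lowered 0 of the 10 (50.5% of all genes called) and siBRD8-36 raised 2 and lowered 3 (58.3%). There, siTIP60-2 raised 3 and lowered 2 (49.8%), and siTIP60-11 raised 7 and lowered 1 (53.6%). In SW480, siBRD8-6 raised 4 and lowered 3 (52.1%) and siBRD8-36 raised 2 and lowered 6 (56.8%), while siTIP60-2 raised 3 and lowered 2 (49.5%) and siTIP60-11 raised 2 and lowered 2 (47.6%). The comparisons of a line share its 3 controls.

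**Figure D2:**
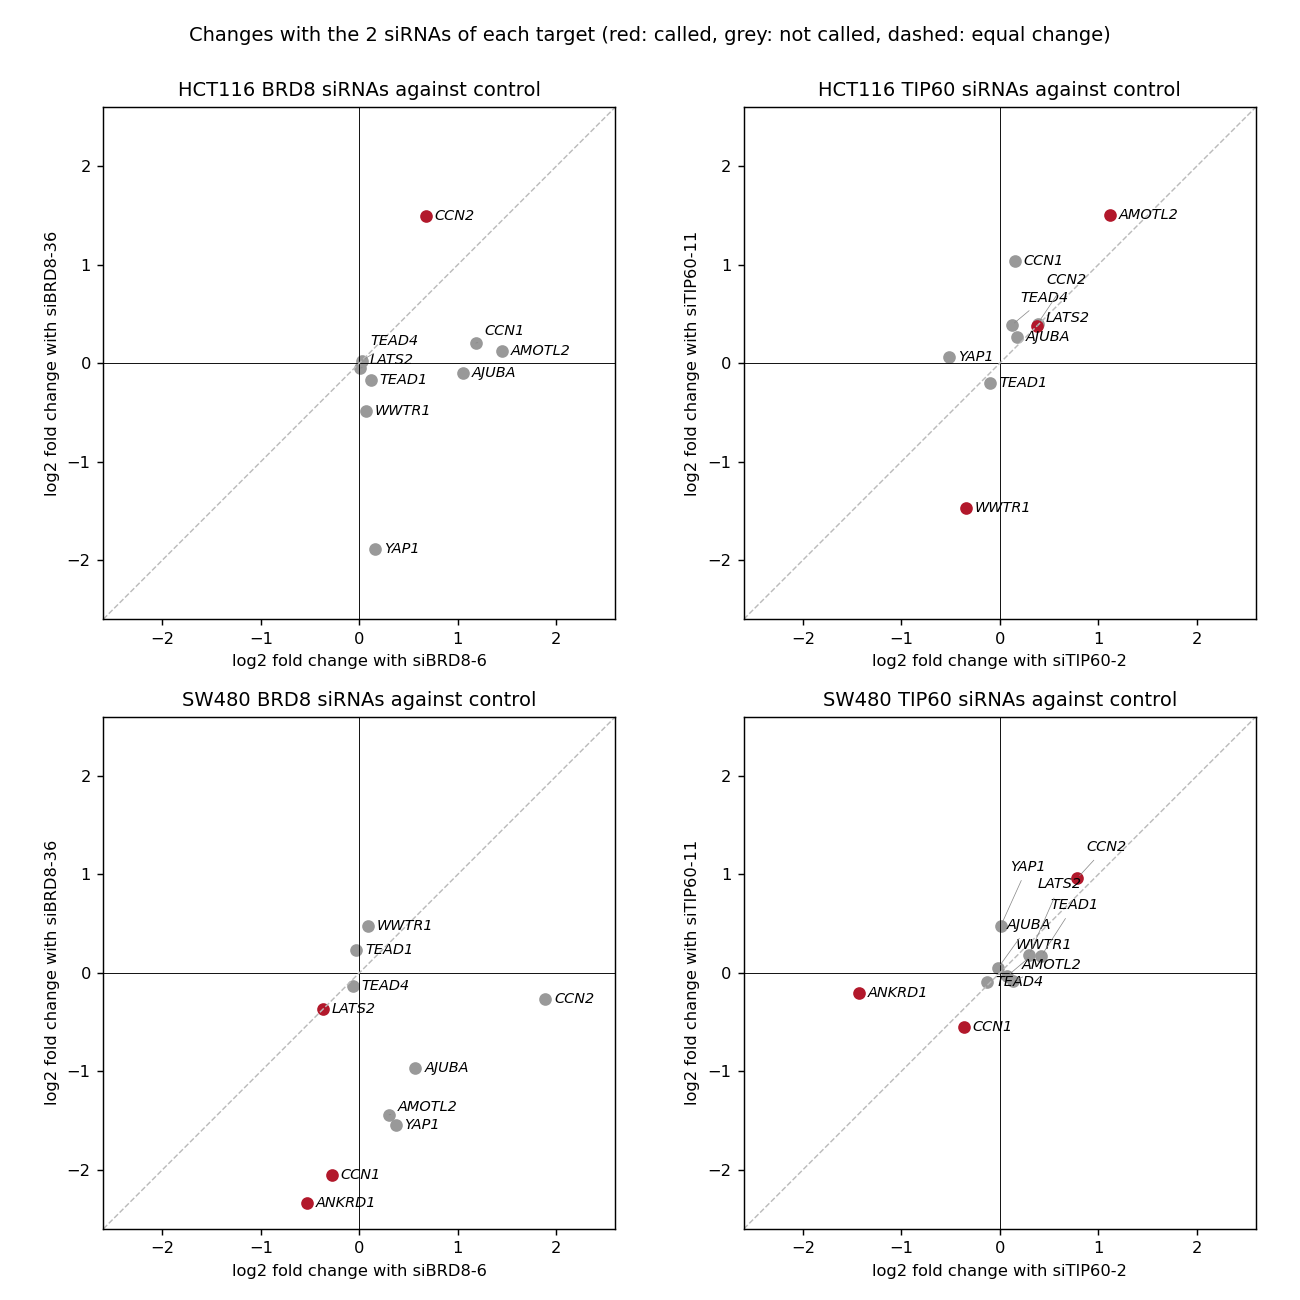
Log2 fold change against control with the first (horizontal axes) and second siRNA (vertical axes) of each target in each line. Points are genes (ANKRD1 in HCT116 is left out for its low counts), red where the target was called over both siRNAs, and the dashed line marks equal change. With the BRD8 siRNAs, YAP1 lies far below the line in both panels, and in SW480 AMOTL2 and AJUBA lie to the right of 0 and below 0.

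The BRD8 siRNAs differed from each other in most of these genes. Set directly against siBRD8-36, siBRD8-6 gave higher levels of 6 genes and a lower level of 1 in HCT116, where 56.7% of all genes differed, and of 6 and 2 in SW480, where 52.8% did. The median difference of the 10 genes was 0.77 in HCT116 and 1.64 in SW480, against 0 and 0.0014 for all genes. As the 10 genes were chosen with earlier results of these data known, this gap is a description only. In both lines YAP1 (2.05 ± 0.0691 and 1.91 ± 0.0532), CCN1 (0.98 ± 0.0722 and 1.78 ± 0.1002), AMOTL2 (1.32 ± 0.0767 and 1.74 ± 0.0655), AJUBA (1.15 ± 0.0785 and 1.53 ± 0.0774) and ANKRD1 (0 counts with siBRD8-36 in HCT116, and 1.80 ± 0.0587 in SW480) were higher with siBRD8-6, with adjusted p at or below 0.00037. CCN2 and WWTR1 changed sides between the lines. CCN2 was lower with siBRD8-6 in HCT116 (−0.81 ± 0.137, adjusted p = 4.73e-05) and higher in SW480 (2.15 ± 0.176, adjusted p = 4.07e-11), and WWTR1 was higher in HCT116 (0.56 ± 0.0540, adjusted p = 4.79e-08) and lower in SW480 (−0.39 ± 0.0603, adjusted p = 4.46e-06). LATS2 and TEAD4 did not pass in either line, with differences of 0.060 ± 0.0826 and −0.0049 ± 0.0916 and of −0.0023 ± 0.0900 and 0.066 ± 0.0826. TEAD1 was lower with siBRD8-6 in SW480 (−0.26 ± 0.0758, adjusted p = 0.00583), lost without siBRD8-36 replicate 3 (adjusted p = 0.0812). In HCT116 TEAD1 (0.29 ± 0.131, adjusted p = 0.0790) passed without control replicate 2 (adjusted p = 5.94e-05), without control replicate 3 (0.0412) and with DESeq2 (0.0332). It passed as well with a term for the replicate number in the fit. BRD8 itself stood at 20.8% and 14.2% of control in HCT116 with the 2 siRNAs, and at 24.5% and 21.2% in SW480.

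The TIP60 siRNAs differed in 6 of the 10 genes in HCT116 (background 46%) and in 4 in SW480 (45.3%). YAP1 was lower with siTIP60-2 than with siTIP60-11 in both lines, with differences of −0.58 ± 0.0651 in HCT116 and −0.47 ± 0.0502 in SW480 (adjusted p = 7.19e-07 and 1.55e-08). WWTR1 was higher with siTIP60-2 in HCT116 (1.13 ± 0.0576, adjusted p = 1.79e-11), and CCN1 (−0.88 ± 0.0734, adjusted p = 1.39e-08), AMOTL2 (−0.39 ± 0.0736, adjusted p = 0.000271) and TEAD4 (−0.26 ± 0.0879, adjusted p = 0.0190) were lower. The TEAD4 call ended without siTIP60-2 replicate 1 (adjusted p = 0.0670), without siTIP60-2 replicate 3 (0.0515) and without siTIP60-11 replicate 1 (0.101). ANKRD1 was lower with siTIP60-2 in SW480 (−1.23 ± 0.0565, adjusted p = 8.03e-16). In HCT116, where it rested on 17 counts against 47, its call (adjusted p = 0.0107) ended without siTIP60-2 replicate 3 (adjusted p = 0.0572) and without siTIP60-11 replicate 3 (0.0717). AMOTL2 (0.22 ± 0.0613, adjusted p = 0.00494) and TEAD1 (0.25 ± 0.0752, adjusted p = 0.00852) were higher with siTIP60-2 in SW480. LATS2 (0.12 ± 0.0840, adjusted p = 0.269) passed there without siTIP60-2 replicate 3 (adjusted p = 0.0251). On log2(TPM + 1) the calls of AMOTL2 (−0.24, adjusted p = 0.123) and TEAD4 (−0.20, adjusted p = 0.168) in HCT116 and of TEAD1 in SW480 (0.29, adjusted p = 0.112) were lost, and WWTR1 (0.33, adjusted p = 0.00900) and CCN1 (0.31, adjusted p = 0.0378) were called higher with siTIP60-2 in SW480.

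**Figure D3:**
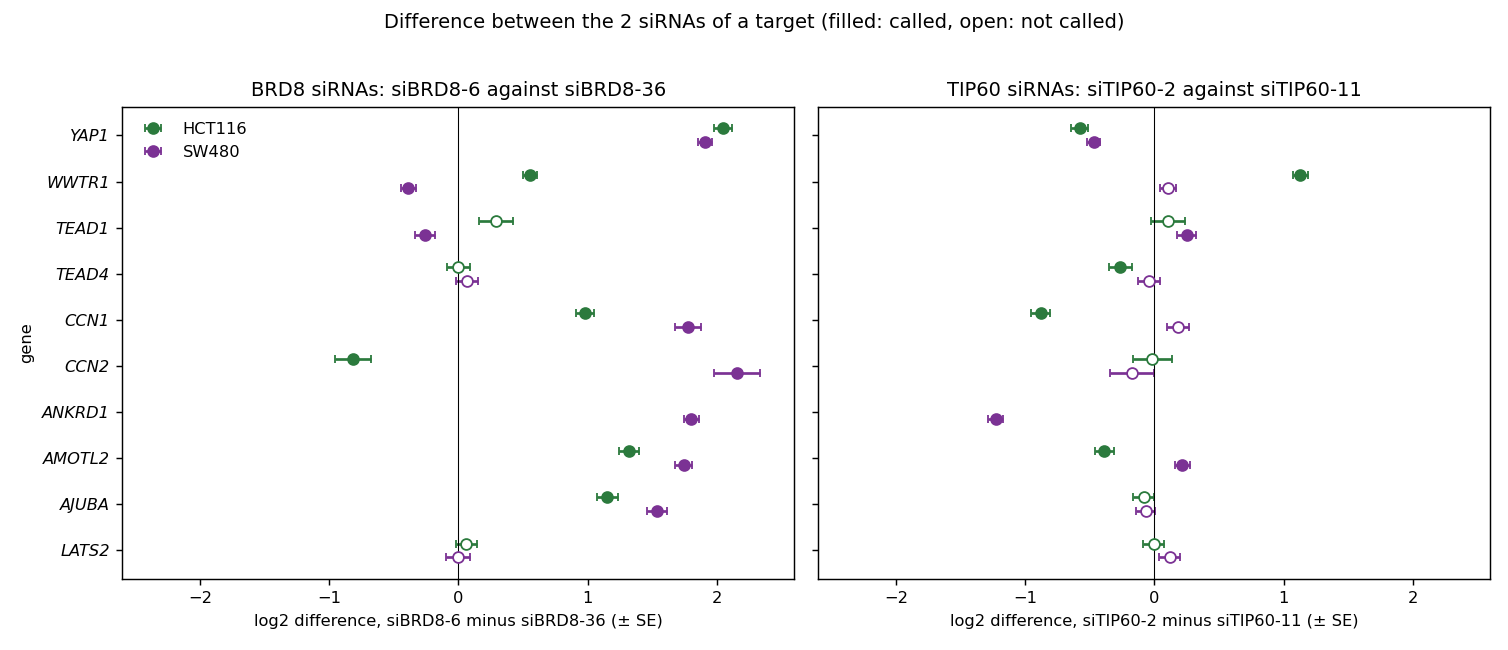
Difference between the siRNAs of a target (log2, horizontal axes, ± SE of the fit) for each gene, HCT116 in green and SW480 in purple, filled where called. ANKRD1 in HCT116 is left out. YAP1 lies near 2 for the BRD8 siRNAs in both lines, CCN2 lies on opposite sides of 0, and LATS2 and TEAD4 lie near 0.

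The mean over the BRD8 siRNAs was then set against the mean over the TIP60 siRNAs. Of the 10 genes, 8 differed in HCT116 (3 higher and 5 lower with BRD8 depletion, where 61.8% of all genes differed) and 8 in SW480 (1 higher and 7 lower, where 59.9% did). YAP1 was lower after BRD8 depletion in both lines (−0.64 ± 0.0470, adjusted p = 7.72e-10 in HCT116 and −0.83 ± 0.0363, adjusted p = 7.43e-17 in SW480), as were AMOTL2 (−0.52 ± 0.0530 and −0.60 ± 0.0447) and LATS2 (−0.40 ± 0.0573 and −0.61 ± 0.0620). WWTR1 was higher in both (0.70 ± 0.0395 and 0.26 ± 0.0431). CCN1 differed in SW480 (−0.71 ± 0.0672, adjusted p = 6.28e-10), and in HCT116 (0.10 ± 0.0516, adjusted p = 0.103) it passed only without siBRD8-6 replicate 2 (adjusted p = 0.0354). CCN2 was higher after BRD8 depletion in HCT116 (0.69 ± 0.102, adjusted p = 8.76e-06) and did not pass in SW480 (−0.059 ± 0.123, adjusted p = 0.699). AJUBA was higher in HCT116 (0.26 ± 0.0558) and lower in SW480 (−0.21 ± 0.0539). ANKRD1 in SW480 (−0.62 ± 0.0403), TEAD1 in SW480 (−0.20 ± 0.0534) and TEAD4 in HCT116 (−0.23 ± 0.0629) were lower after BRD8 depletion. ANKRD1 in HCT116 was lower too, on 18 counts in the 6 libraries with a BRD8 siRNA against 64 with a TIP60 siRNA. TEAD1 in HCT116 (0.12 ± 0.0928, adjusted p = 0.268) passed without control replicate 2 (adjusted p = 0.00651). On log2(TPM + 1) the differences of AJUBA in HCT116 (0.19, adjusted p = 0.118) and TEAD1 in SW480 (−0.080, adjusted p = 0.513) were lost. The means for BRD8 lie between unlike values of its siRNAs for several genes, as for YAP1, AMOTL2 and AJUBA in both lines. A difference between the targets thus need not hold for each siRNA. In SW480, CCN2 measured 13.6 CPM with siBRD8-6 and 3.05 with siBRD8-36, with siTIP60-2 (6.29) and siTIP60-11 (7.11) between them. ANKRD1 there stood at 279 CPM with siBRD8-6, above siTIP60-2 at 149.8. WWTR1 in HCT116 stood at 71.5 CPM with siBRD8-36, below siTIP60-2 at 78.9. AMOTL2 in HCT116 stood at 124 CPM with siBRD8-6, above siTIP60-2 at 98.8. In HCT116, YAP1 measured 207 ± 12.2 CPM with siBRD8-6, above 129.9 ± 6.84 with siTIP60-2, and 49.9 ± 3.35 with siBRD8-36, below it.

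The response of the lines was compared through the difference of their fold changes, tested in 1 fit of all 30 libraries. For BRD8 depletion 6 of the 10 genes differed between the lines (34.4% of 17411 genes did), and for TIP60 depletion 7 (31.1%). The response of CCN1 in HCT116 lay above that in SW480, with a difference of 1.79 ± 0.106 for BRD8 and 1.01 ± 0.104 for TIP60 (adjusted p = 6.92e-15 and 2.51e-09). AMOTL2 was likewise above for BRD8 (1.29 ± 0.0909) and TIP60 (1.24 ± 0.0895). WWTR1 was below for both (−0.56 ± 0.0712 and −0.97 ± 0.0723), as was YAP1 (−0.35 ± 0.0704 and −0.51 ± 0.0694). These tests use the mean over the siRNAs of a target, which need not agree. WWTR1 changed alike in the lines with siBRD8-6 (0.069 in HCT116 and 0.084 in SW480). Its difference for BRD8 came from siBRD8-36 (−0.49 and 0.47). AJUBA differed for BRD8 (0.60 ± 0.101, adjusted p = 1.23e-05) and TEAD4 for TIP60 (0.32 ± 0.110, adjusted p = 0.0232). Other differences were lost when a single library was left out, for LATS2 also with libraries that do not enter its contrast. The difference of TEAD1 for TIP60 (−0.49 ± 0.145, adjusted p = 0.0121) ended without HCT116 control replicate 1 (adjusted p = 0.0564), without HCT116 control replicate 3 (0.0795) and without SW480 control replicate 3 (0.0606). That of LATS2 for BRD8 (0.28 ± 0.112, adjusted p = 0.04995) ended without HCT116 control replicate 2, HCT116 siBRD8-6 replicate 1, HCT116 siBRD8-36 replicate 3, HCT116 siTIP60-2 replicate 2, HCT116 siTIP60-11 replicate 1, 2 or 3, SW480 control replicate 1, SW480 siBRD8-6 replicate 1 or 3 or SW480 siTIP60-2 replicate 2 (adjusted p between 0.0515 and 0.154). ANKRD1 differed for TIP60 (adjusted p = 6.95e-06), a result whose HCT116 side rests on 2 to 21 counts in a library. For BRD8 its difference did not pass with counts (−0.20, adjusted p = 0.473). On the HCT116 side siBRD8-36 had 0 counts in every library. This value thus depends on the prior count of the fit, and the size of the difference is not known. On log2(TPM + 1) that difference turned sign and was called (1.14, adjusted p = 5.1e-08). The HCT116 control and BRD8 groups lay at 0 to 0.33 TPM, so the added 1 held their change near 0 (0.0040). The value of 1.14 thus reflects the SW480 fall (−1.14) and does not measure a difference between the lines. CCN2 did not pass for BRD8 (0.20 ± 0.228, adjusted p = 0.553), nor for TIP60 (−0.52 ± 0.225, adjusted p = 0.0790), though the latter passed without HCT116 control replicate 2 (adjusted p = 0.0322) and on log2(TPM + 1) (−0.49, adjusted p = 0.0400). For BRD8 the mean joins unlike changes of CCN2. With siBRD8-6 it changed by 0.68 in HCT116 and 1.89 in SW480, and with siBRD8-36 by 1.49 and −0.27. The lines were not compared by single siRNA. TEAD1 passed for BRD8 without HCT116 control replicate 2 (adjusted p = 0.00163) and on log2(TPM + 1) (−0.59, adjusted p = 0.0306). That scale also ended the differences of AJUBA (0.30, adjusted p = 0.107) and LATS2 (0.097, adjusted p = 0.769) for BRD8 and of TEAD4 for TIP60 (0.11, adjusted p = 0.498). The median of all genes was −0.096 for the BRD8 and −0.064 for the TIP60 difference.

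Likeness of pattern was described by Pearson's r over the 10 group means of log2 CPM, centred within each line, among 12084 other protein-coding genes tested in both lines. These points share their libraries and each line's controls, and no test is attached. The genes most like YAP1 were KLHL9 (r = 0.988), LNPK (r = 0.986), PSMD10 (r = 0.982), SLC35B4 (r = 0.980) and LDAH (r = 0.973). With siBRD8-36 these 5 changed by −2.81 to −0.96 (log2) in HCT116 and by −2.66 to −1.07 in SW480. PSMD10, which encodes an assembly chaperone of the proteasome, had the largest fall in both lines. Those most like CCN1 were DET1 (r = 0.915), EOMES (r = 0.889), BTBD19 (r = 0.888), CDR2 (r = 0.878) and AMOTL2 (r = 0.876), the last of which is among the 10 genes. Those most like CCN2 were SRGAP2 (r = 0.944), NEDD9 (r = 0.925), LGR4 (r = 0.925), PIK3C2B (r = 0.924) and TMCC2 (r = 0.904). NEDD9, which encodes a docking protein of focal adhesions, rose by 2.54 with siBRD8-36 in HCT116 and by 2.10 with siBRD8-6 in SW480, the same groups in which CCN2 was highest. Such shared groups follow largely from the choice of genes by likeness. So do the falls with siBRD8-36 of the genes most like YAP1. Among the 10 genes themselves r was 0.876 for AMOTL2 and CCN1, 0.833 for AJUBA and CCN1 and 0.826 for AJUBA and AMOTL2. It was 0.807 for YAP1 and ANKRD1, 0.699 for YAP1 and CCN1 and 0.0864 for YAP1 and CCN2. The levels of the transcripts do not show where YAP and TAZ proteins are in the cell, which was not measured.

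Other genes of the pathway were counted by the same call rule, against 24.4% and 27.9% of all genes called for BRD8 and TIP60 in HCT116 and 26.9% and 23.6% in SW480. Of 20 further genes often used as YAP and TEAD targets, 18 were tested in HCT116 and 19 in SW480. After BRD8 depletion 7 rose and 2 fell in HCT116 (median 0.35) and 3 rose and 4 fell in SW480 (0.045). After TIP60 depletion 7 rose and 3 fell in HCT116 (0.45) and 6 rose and 4 fell in SW480 (0.24). NT5E, the ectonucleotidase CD73, fell in all 4 comparisons. Its log2 fold changes for BRD8 and TIP60 were −1.27 ± 0.0497 and −1.40 ± 0.0498 in HCT116 and −2.31 ± 0.0769 and −0.98 ± 0.0724 in SW480. The peptide hormone gene EDN1, of low level in control (HCT116 0.233 ± 0.0947, SW480 0.289 ± 0.156 CPM), rose in HCT116 after BRD8 (3.06 ± 0.402) and TIP60 depletion (1.75 ± 0.440) and in SW480 after TIP60 depletion (2.19 ± 0.446). IGFBP3, a binding protein of insulin-like growth factors, rose after TIP60 depletion in HCT116 (2.62 ± 0.158) and SW480 (1.40 ± 0.0697). AREG, a ligand of the EGF receptor, fell in SW480 after BRD8 (−2.01 ± 0.137) and TIP60 depletion (−0.88 ± 0.125). In SW480 the receptor tyrosine kinase gene AXL fell after BRD8 depletion (−1.08 ± 0.0477) and CRIM1 rose (0.80 ± 0.0775). In HCT116, PTPN14, a phosphatase that binds YAP (1.04 ± 0.103), and CCDC80 (1.27 ± 0.295) rose after BRD8 depletion, and FJX1 rose after TIP60 depletion (1.01 ± 0.0693).

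**Figure D4:**
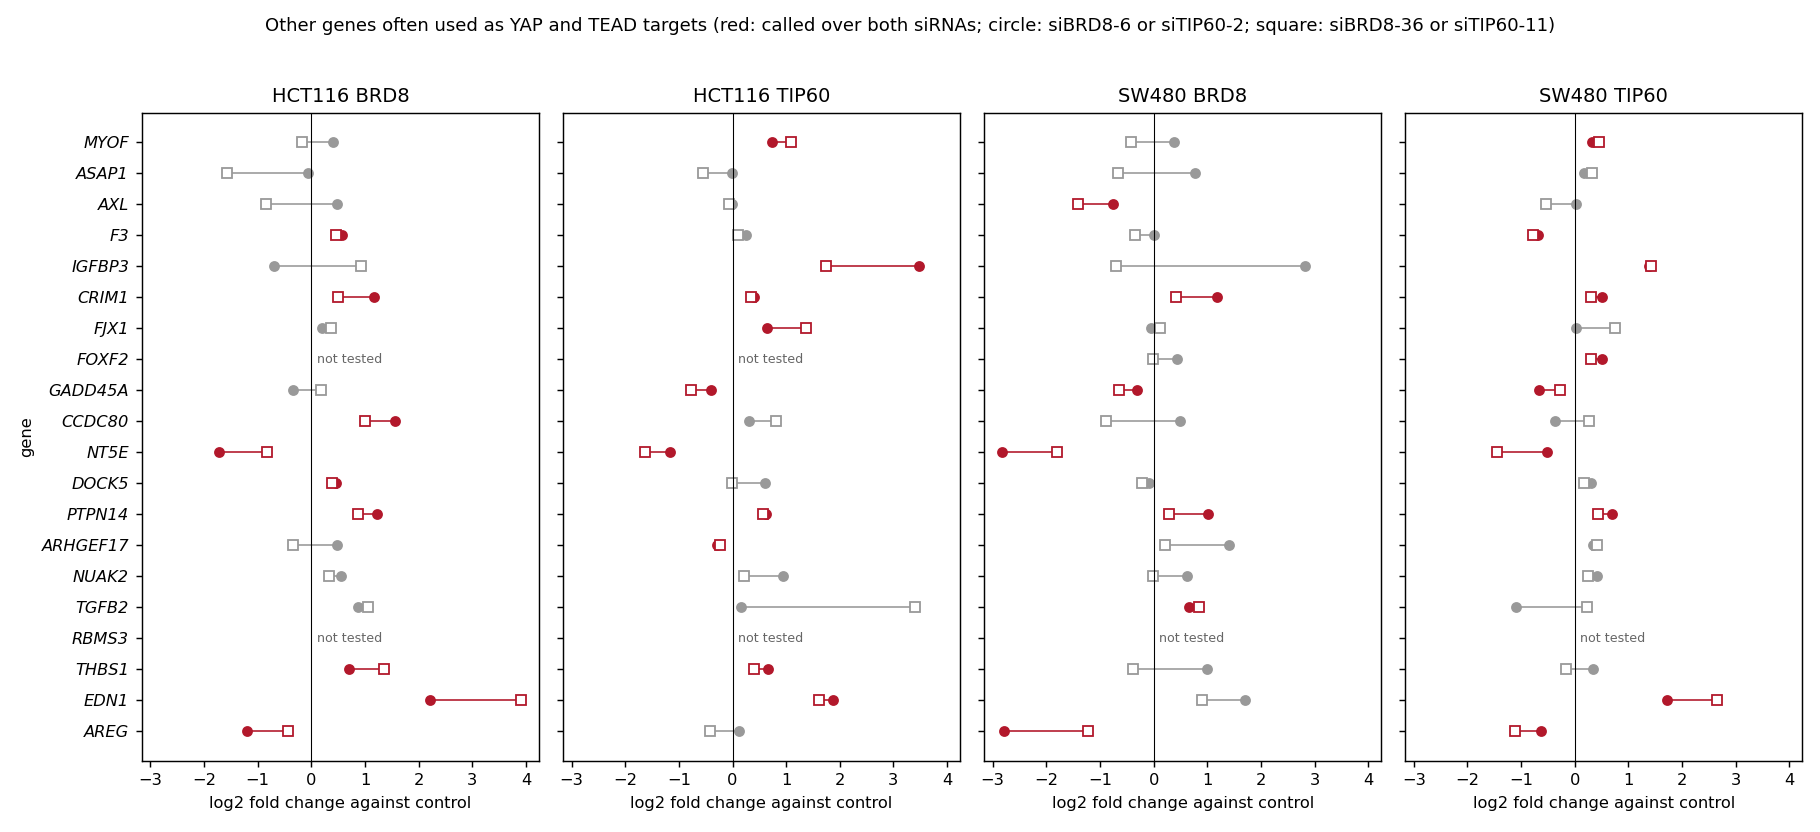
Log2 fold change against control (horizontal axes) of the 20 further genes often used as YAP and TEAD targets, with circles for siBRD8-6 or siTIP60-2, squares for siBRD8-36 or siTIP60-11 and red where the target was called over both. NT5E lies below 0 with every siRNA in both lines, and IGFBP3 lies on opposite sides of 0 with the 2 BRD8 siRNAs in both lines.

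Among 19 Hippo kinases and upstream regulators, all tested, 2 rose and 2 fell after BRD8 and 3 rose and 3 fell after TIP60 depletion in HCT116 (medians −0.12 and −0.086). In SW480 5 rose and 2 fell and 7 rose and 0 fell (medians 0.22 and 0.28). Of all genes, 24.4% and 27.9% were called in HCT116 and 26.9% and 23.6% in SW480, so that in HCT116 the share of these regulators was near that of all genes. The angiomotin gene AMOT rose in SW480 after BRD8 (1.02 ± 0.0904) and TIP60 depletion (0.67 ± 0.0923) and fell in HCT116 after TIP60 depletion (−0.57 ± 0.107, adjusted p = 0.0465). The cadherin gene FAT1 rose in SW480 (0.90 ± 0.0813 for BRD8 and 1.10 ± 0.0817 for TIP60). WWC1, which encodes the scaffold KIBRA, rose after TIP60 depletion in HCT116 (0.51 ± 0.0508) and SW480 (0.67 ± 0.0706). The kinase gene MAP4K4 rose after BRD8 depletion in HCT116 (0.42 ± 0.0502) and SW480 (0.58 ± 0.0602), where LIMD1, a LIM protein like AJUBA, rose as well (0.46 ± 0.0998). After TIP60 depletion the kinase gene TAOK3 rose in SW480 (0.91 ± 0.0939). In HCT116, NF2, which encodes merlin, rose (0.78 ± 0.0552) and the kinase adaptor gene MOB1A (−0.57 ± 0.0594) and the kinase gene STK3 (−0.55 ± 0.0516) fell after BRD8 depletion. The related MOB1B (−0.94 ± 0.0549) and STK4 (−0.64 ± 0.0848) fell after TIP60 depletion.

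Of the 5 other TEAD factors and cofactors, 4 were tested in HCT116 and 3 in SW480. VGLL4, which competes with YAP for TEAD, rose after BRD8 depletion in HCT116 (0.55 ± 0.0560) and SW480 (0.51 ± 0.0612) and after TIP60 depletion in SW480 (0.75 ± 0.0611). After TIP60 depletion in HCT116, VGLL3, another TEAD cofactor at 0.165 ± 0.128 CPM in control, rose (2.39 ± 0.513) and TEAD2 fell (−0.30 ± 0.0677). Of 19 serum response and AP-1 genes, whose factors share many targets with YAP, 18 were tested in each line. In HCT116 6 rose and 3 fell after BRD8 and 7 rose and 2 fell after TIP60 depletion (medians 0.27 and 0.27), and in SW480 1 rose and 3 fell and 8 rose and 2 fell (medians 0.15 and 0.29). The shares of all genes called were 24.4% and 27.9% in HCT116 and 26.9% and 23.6% in SW480. After BRD8 depletion in SW480 the share of these genes was near that of all genes. JUN rose after TIP60 depletion in HCT116 (0.90 ± 0.0579) and SW480 (0.70 ± 0.0684) and fell after BRD8 depletion in SW480 (−0.36 ± 0.0706). ATF3, a stress-induced factor, fell in SW480 after BRD8 (−2.06 ± 0.0695) and TIP60 depletion (−0.81 ± 0.0643). MYL9, a myosin light chain, rose after BRD8 depletion in HCT116 (1.14 ± 0.0627) and SW480 (0.99 ± 0.0904), and the smooth muscle actin gene ACTA2 rose in HCT116 after BRD8 (1.20 ± 0.0825) and TIP60 depletion (0.89 ± 0.0828). SRF itself rose in HCT116 after BRD8 depletion (0.79 ± 0.0544), where the immediate early gene EGR1 fell (−0.85 ± 0.0766). FOSL1 fell in SW480 after BRD8 depletion (−0.61 ± 0.0592). After TIP60 depletion JUND (0.76 ± 0.0822) and FOSL2 (0.70 ± 0.0574) rose in HCT116, and EGR3 (0.75 ± 0.0822) and the adhesion gene VCL (0.66 ± 0.0567) rose in SW480.

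The unit of the values mattered for several of these genes. With limma on log2(TPM + 1), a scale that understates changes of low genes, the median change of all genes in SW480 against control lay at 0.12 to 0.25 for the 4 siRNAs, and within 0.022 of 0 with counts. In HCT116 it lay between −0.037 and 0.021. The SW480 changes in TPM stand relative to that shift. The losses for CCN1, LATS2 and ANKRD1 in SW480 and for WWTR1 and LATS2 in HCT116 over both siRNAs stand with these genes. In SW480, WWTR1 (0.57, adjusted p = 0.00932) and TEAD1 (0.64, adjusted p = 0.0227) were called higher for BRD8, and YAP1 (0.50, adjusted p = 0.00296) and TEAD1 (0.72, adjusted p = 0.00631) for TIP60.

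By single siRNA, the calls lost on log2(TPM + 1) in HCT116 were YAP1 (0.19, 0.201) with siBRD8-6 (the change and its adjusted p), WWTR1 (−0.18, 0.248), CCN1 (0.17, 0.162) and ANKRD1 (−0.17, 0.268) with siBRD8-36, WWTR1 (−0.22, 0.178), CCN2 (0.31, 0.132) and LATS2 (0.18, 0.417) with siTIP60-2 and CCN2 (0.28, 0.160), AJUBA (0.17, 0.33) and LATS2 (0.12, 0.565) with siTIP60-11. None was gained there. In SW480 the calls lost were CCN1 (−0.0052, 0.975) and LATS2 (−0.31, 0.165) with siBRD8-6, LATS2 (−0.16, 0.458) with siBRD8-36, CCN1 (−0.085, 0.547) with siTIP60-2 and ANKRD1 (−0.063, 0.385) with siTIP60-11. The calls gained in SW480, all as higher, were WWTR1 (0.34, 0.00496) and TEAD1 (0.45, 0.0127) with siBRD8-6, YAP1 (0.34, 0.00107), WWTR1 (0.39, 0.00217), AMOTL2 (0.49, 0.00192) and AJUBA (0.37, 0.00426) with siTIP60-2 and TEAD1 (0.58, 0.00303) and AJUBA (0.26, 0.0377) with siTIP60-11. On this scale the median of all genes was 0.225 with siBRD8-6, 0.252 with siTIP60-2 and 0.116 with siTIP60-11. The adjusted p values test a change from 0 and not from that median. The fall of YAP1 with siBRD8-36 was −1.42, adjusted p = 6.01e-08 in HCT116 and −0.69, adjusted p = 7.45e-07 in SW480. TPM uses the length of the transcript isoforms that the quantification assigns, and the part of that step in these differences was not tested.

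**Figure D5:**
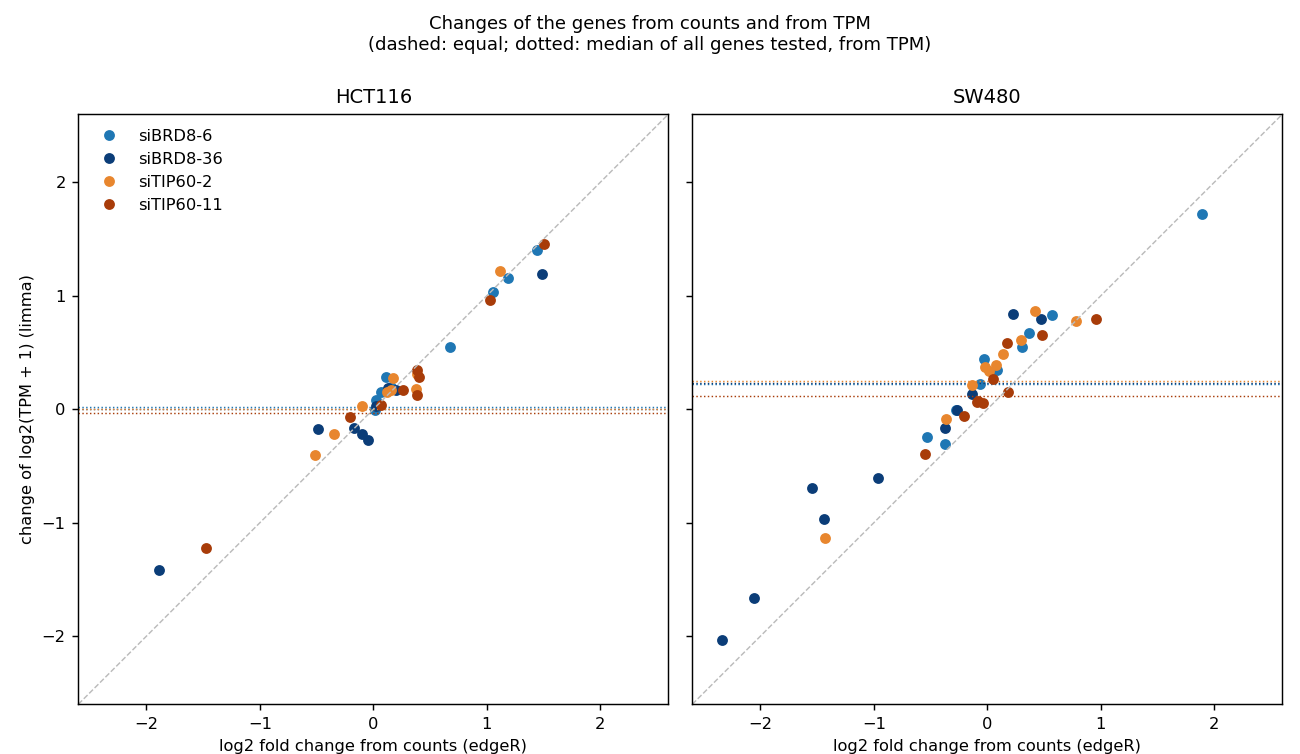
Change against control from counts (log2, horizontal axes) and from TPM (log2 of TPM + 1, vertical axes) of the genes with each siRNA, ANKRD1 in HCT116 left out. The dashed line marks equal change and dotted lines the median of all genes from TPM, which lies up to 0.25 in SW480. In SW480 most points lie above the dashed line.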

How the data were processed

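Single-end RNA-seq libraries of 30 samples were analysed. The authors deposited expected counts and TPM per gene from RSEM 1.3.3, per the file headers and the submitters' processing notes, which also name Trimmomatic 0.33, STAR 2.7.3a and the build hg38. The deposited expected counts are estimates that divide reads shared between genes, and the deposited TPM values, per the file headers, are transcript abundances corrected for length and scaled to a fixed sum. For the annotation release and the strand setting the sources used here give nothing. Positions come from GENCODE 29. The 10 genes and the lists were chosen with earlier results of these data known. From the list of further targets, 1 gene is not reported here.

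Expected counts were rounded and tested with edgeR 4.0.16 (R 4.3.3): TMM scaling, filterByExpr, a robust quasi-likelihood fit of the 15 libraries of each line, and Benjamini-Hochberg adjustment over all genes tested. The lines were compared in 1 fit of all 30 libraries. Log2 fold changes are given ± the standard error derived from the F statistic, and CPM uses TMM factors within a line. For BRD8 or TIP60 the mean of both siRNAs is given, with the larger of their p-values if both moved the same way and 1 otherwise, then adjusted. Genes named outside the 10 were BRD8, KAT5 and, per list, target and line, up to 4 called genes with the largest mean changes, and likeness names the 5 highest correlations for YAP1, CCN1 and CCN2. Exact 95% intervals of count ratios and the floor of 3 counts over a group cover counting error only. Total counts of 7.07 to 18.6 M limit the precision of the rarest transcripts. The method was tested on simulated counts. Alternatives were DESeq2 1.42.0, its size factors in edgeR, no filter, a filter of 1 CPM in 3 libraries, limma 3.58.1 on log2(TPM + 1), a replicate block, the 30-library fit for each line and leaving out each library. No replicates held identical values.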

Additional observations from a re-analysis of the deposited data

Results flagged for a closer look

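The response to depletion differed between the lines, by the test of the difference itself in the fit of all 30 libraries, for 6 of the 10 genes with BRD8 and 7 with TIP60, where 34.4% and 31.1% of all 17411 genes tested did. For BRD8, the log2 response in HCT116 minus that in SW480 was −0.56 for WWTR1, 1.29 for AMOTL2, 0.60 for AJUBA, −0.35 for YAP1, 1.79 for CCN1 and 0.28 for LATS2. For TIP60 it was −0.97 for WWTR1, 1.24 for AMOTL2, −0.51 for YAP1, 1.01 for CCN1, 2.51 for ANKRD1, −0.49 for TEAD1 and 0.32 for TEAD4. The value of ANKRD1 depends on the prior count of the fit, since its HCT116 libraries held 2 to 21 counts. CCN1, AMOTL2, WWTR1 and YAP1 differed with both targets, with the same sign for each. The values are means over the siRNAs of a target. For WWTR1 and BRD8 the difference came from siBRD8-36 (−0.49 in HCT116 and 0.47 in SW480), since siBRD8-6 gave 0.069 and 0.084. The controls of a line enter both responses. No group had enough replicates for a test of single outlying libraries. By chi-square per gene between the counts of replicates, HCT116 control replicate 2 lay far from its partners. The values were 15.9 with replicate 1 and 21.3 with replicate 3, against 3.72 between replicates 1 and 3. The value of 21.3 was the highest of the 30 pairs. This replicate enters every HCT116 fold change against control.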

How the results depend on the processing

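Of 4971 alternative values of the 210 results on the 10 genes, 4733 kept direction and side of the threshold, 99 lost a call, 48 gained one and 91 turned sign, 1 of them called in the main fit (LATS2 between control lines in TPM). Values that turned sign and became calls are not among the 48. In TPM these included ANKRD1 for BRD8 between lines (1.14, adjusted p = 5.1e-08). Its HCT116 control and BRD8 groups lay at 0 to 0.33 TPM, below the added 1, so that value reflects the SW480 side. TEAD1 with siBRD8-6 (0.45, adjusted p = 0.0127) and AJUBA with siTIP60-2 (0.37, adjusted p = 0.00426) in SW480 were others. The cause of these changes was not tested. With each siRNA against control in SW480, the median of all genes in TPM lay at 0.12 to 0.25, and the TPM values stand relative to it. Depth limits ANKRD1 in HCT116 and CCN2 in both lines. In HCT116, limma on log2(TPM + 1) called 2375 genes for BRD8 and 2764 for TIP60, in place of 3891 and 4436. Of the 10 genes it then called 1 (HCT116 TIP60), 2 (HCT116 siBRD8-36), 2 (HCT116 siTIP60-2), 5 (HCT116 siTIP60-11), 8 (SW480 siTIP60-2) and 5 (the control lines), in place of 3, 5, 5, 8, 5 and 8. Leaving out each library gave 1 to 2 of the 10 called for HCT116 BRD8, the 2 without control replicate 3 (AMOTL2 added).

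Log2 changes that turned sign in TPM were TEAD1 0.056 and ANKRD1 0.0040 (HCT116 BRD8), TEAD4 0.057 (HCT116 siBRD8-6 against siBRD8-36), CCN2 0.028, AJUBA 0.10 and LATS2 0.053 (HCT116 siTIP60-2 against siTIP60-11), TEAD4 0.18 and AJUBA 0.11 (SW480 BRD8), TEAD4 0.13 (SW480 TIP60), CCN2 0.070 (SW480 BRD8 against TIP60), TEAD4 0.15 and AJUBA 0.11 (SW480 siTIP60-2 against siTIP60-11), TEAD4 −0.12 and ANKRD1 1.14 (BRD8 between lines), AJUBA −0.093 and LATS2 −0.23 (TIP60 between lines), WWTR1 0.12 and LATS2 0.080 (the control lines), LATS2 −0.0084 (HCT116 siBRD8-6), TEAD1 0.028 (HCT116 siTIP60-2), TEAD1 0.45 and TEAD4 0.22 (SW480 siBRD8-6), TEAD4 0.13 (SW480 siBRD8-36), TEAD4 0.21 and AJUBA 0.37 (SW480 siTIP60-2) and WWTR1 0.057, TEAD4 0.059 and AMOTL2 0.069 (SW480 siTIP60-11). Others turned with no filter, TEAD4 0.019 (HCT116 siBRD8-6 against siBRD8-36) and CCN2 0.0057 and LATS2 0.017 (HCT116 siTIP60-2 against siTIP60-11); with the stricter filter, TEAD4 0.0061 (HCT116 siBRD8-6 against siBRD8-36) and LATS2 4.4e-04 (HCT116 siTIP60-2 against siTIP60-11); with DESeq2, ANKRD1 0.020 (BRD8 between lines) and YAP1 −0.0016 (SW480 siTIP60-2); in 1 fit of all 30 libraries, TEAD1 0.012 (SW480 siBRD8-6), AJUBA 0.0089 (SW480 siTIP60-2) and WWTR1 0.0014 (SW480 siTIP60-11); with the size factors of DESeq2, YAP1 −0.0014 (SW480 siTIP60-2). Values that turned sign without some library, none called before, ranged over the libraries left out for TEAD1 −0.21 to 0.11, TEAD4 −0.024 to 0.080 and LATS2 −0.092 to 0.018 (HCT116 BRD8), TEAD4 −0.11 to 0.096 and LATS2 −5.0e-04 to 0.13 (HCT116 siBRD8-6 against siBRD8-36), LATS2 −0.065 to 0.035 and CCN2 −0.071 to 0.086 (HCT116 siTIP60-2 against siTIP60-11), WWTR1 −0.011 to 0.044 and AJUBA −0.025 to 0.054 (SW480 TIP60), TEAD4 −0.025 to 0.054 and CCN2 −0.13 to 0.058 (SW480 BRD8 against TIP60), LATS2 −0.060 to 0.071 and TEAD4 −0.0057 to 0.14 (SW480 siBRD8-6 against siBRD8-36), AJUBA −0.14 to 0.015 and TEAD4 −0.11 to 0.047 (SW480 siTIP60-2 against siTIP60-11), ANKRD1 −0.43 to 0.21 (BRD8 between lines), WWTR1 −0.18 to 1.1e-04 (the control lines), TEAD4 −0.031 to 0.078, TEAD1 −0.065 to 0.25 and LATS2 −0.062 to 0.051 (HCT116 siBRD8-6), TEAD4 −0.072 to 0.14 and LATS2 −0.12 to 0.010 (HCT116 siBRD8-36), TEAD1 −0.28 to 0.046 (HCT116 siTIP60-2), AJUBA −0.095 to 0.061 and YAP1 −0.0092 to 0.040 (SW480 siTIP60-2) and WWTR1 −0.090 to 0.018 (SW480 siTIP60-11).

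With the replicate block, 4069 and 4668 genes were called for BRD8 and TIP60 in HCT116 and 3941 and 3459 in SW480. In HCT116, CCN2 was then called for TIP60 (adjusted p = 0.0249) and TEAD1 between the BRD8 siRNAs (0.0440). The block changed no other call of the 10 genes. Same-numbered libraries had correlated deviations of −0.0660 to 0.146 in HCT116, where all 15 libraries were nearest their own number, and of −0.124 to 0.152 in SW480, where 7 of 15 were. Over 0.1 were 5 of 30 same-numbered pairs in HCT116 and 1 of 30 in SW480, short of the rule that every pair be over 0.1, and the labels do not tie the numbers to a batch. The nearness in HCT116 is a hint from the data, not from the design.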
